A study of Mus musculus with 6 samples.

Results

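Kappa chain clonotypes whose CDR3 was shorter or longer than 11 residues were examined in 1 iB-μMT mouse and 1 B6 mouse. A clonotype is a distinct CDR3 nucleotide sequence with its V and J genes, and CDR3 is the loop formed where the V segment joins the J segment. The clonotypes were selected on the length of the translated CDR3, which counts the conserved cysteine at its start and the phenylalanine at its end, and CDR3s with a stop codon or a frame mark were left out. The iB-μMT table held 1818 clonotypes, of which 950 had another length than 11 residues, and the B6 table held 1696, of which 798 did. That gave 1748 of 3514 kappa entries, or 1424 distinct clonotypes, since 324 were found in both mice. The comparison group was the 852 and 877 clonotypes of 11 residues, and 16 and 21 entries were left out for a stop codon or frame mark. The series as a whole holds 18182 clonotypes in 6 libraries of the heavy, kappa and lambda chains.

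The iB-μMT mouse was a B cell-deficient μMT animal that was sublethally irradiated and given hematopoietic progenitors (iHPCs) made from embryonic stem cells with inducible Runx1, Hoxa9 and Lhx2, and it drank water with doxycycline, which switches those genes on. Naïve follicular (FO) B cells of its spleen were sorted at week 4 after transplantation. The control was 1 C57BL/6 (B6) mouse with no transplant, whose splenic naïve FO B cells were sorted by the same surface markers. The stem cell line carries the 3 factors as one inducible construct, and the markers stated for the sort name none that separates donor from host cells. The tables hold receptor sequences alone, so the sorted cell type could not be checked against other markers, but IGKC was the constant gene of 1789 of 1802 and 1669 of 1675 clonotypes used. With 1 library per mouse, every test between the libraries compares these 2 libraries and not the conditions. Reads carried no molecular identifiers, so every interval covers counting error only.

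The kappa locus rearranges after the heavy chain, in small pre-B cells, by joining 1 of many V segments directly to 1 of a few J segments, with no D segment. RAG proteins cut both ends and leave hairpins. Opening a hairpin off its tip adds palindromic (P) nucleotides, nucleases trim the ends, and the polymerase TdT, largely switched off by then, can add nucleotides without a template. Most mouse V kappa segments end CDR3 with a proline codon, and the typical loop keeps that proline in a cis bend next to the J residues. The length of the loop is therefore the sum of what V and J contribute, what is trimmed and what is added.

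The following sequences show how length was gained and lost, each followed by the most abundant 11-residue clonotype of the same V and J genes. They run 5′ to 3′, and capitals mark proline and methionine codons near the junction. The most abundant clonotypes of unusual length were 10 residues long, joined IGKV19-93 or IGKV8-27 to a J segment, and held no proline codon there.
IGKV19-93 IGKJ1, 10 residues: tgtctacagtatgataatctgtggacgttc
IGKV19-93 IGKJ1, 11 residues: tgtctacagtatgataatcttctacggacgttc
IGKV19-93 IGKJ2, 10 residues: tgtctacagtatgataatctgtacacgttc
IGKV19-93 IGKJ2, 11 residues: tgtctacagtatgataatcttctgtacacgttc
IGKV8-27 IGKJ2, 10 residues: tgtcatcaatacctctcctcgtacacgttc
IGKV8-27 IGKJ2, 11 residues: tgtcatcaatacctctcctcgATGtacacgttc
The leading 12-residue clonotype kept its whole V end, with 2 adjacent proline codons, and differed from its 11-residue partner by 1 more codon after them.
IGKV4-59 IGKJ5, 12 residues: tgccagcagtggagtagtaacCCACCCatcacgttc
IGKV4-59 IGKJ5, 11 residues: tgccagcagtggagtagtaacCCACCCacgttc
The leading 9-residue clonotype had lost the proline codon of its partner together with a neighbouring codon.
IGKV6-23 IGKJ2, 9 residues: tgtcagcaatatagcagctacacgttc
IGKV6-23 IGKJ2, 11 residues: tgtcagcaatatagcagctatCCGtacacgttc
A methionine codon stood before the J residues of many longer IGKJ2 clonotypes, alone or after the proline. The 12- and 13-residue clonotypes were shown because methionine became a result, and the 14-residue clonotype because it led its length.
IGKV6-15 IGKJ2, 12 residues: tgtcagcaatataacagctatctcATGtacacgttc
IGKV6-15 IGKJ2, 11 residues: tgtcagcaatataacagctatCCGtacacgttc
IGKV12-46 IGKJ2, 13 residues: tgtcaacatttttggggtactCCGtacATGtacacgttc
IGKV12-46 IGKJ2, 11 residues: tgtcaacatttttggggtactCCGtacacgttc
IGKV3-12 IGKJ2, 14 residues: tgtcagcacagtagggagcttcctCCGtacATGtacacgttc
IGKV3-12 IGKJ2, 11 residues: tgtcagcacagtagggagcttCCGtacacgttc

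CDR3 ran from 6 to 14 residues in the iB-μMT library and from 7 to 26 residues in the B6 library. The lengths next to the excluded one made up most of the clonotypes of unusual length. In the iB-μMT library, 394 clonotypes had 10 residues and 356 had 12, with 852 at 11 between them. In the B6 library, 367 had 10 residues and 273 had 12, with 877 at 11 between them. Farther out, 9 residues occurred in 68 and 62 clonotypes and 13 residues in 108 and 81. Loops of 8 residues or fewer numbered 15 in the iB-μMT library and 10 in the B6 library, and loops of 14 residues or more numbered 9 and 5. Clonotypes of 10 residues or fewer are called short here, and those of 12 or more are called long.

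**Figure D1:**
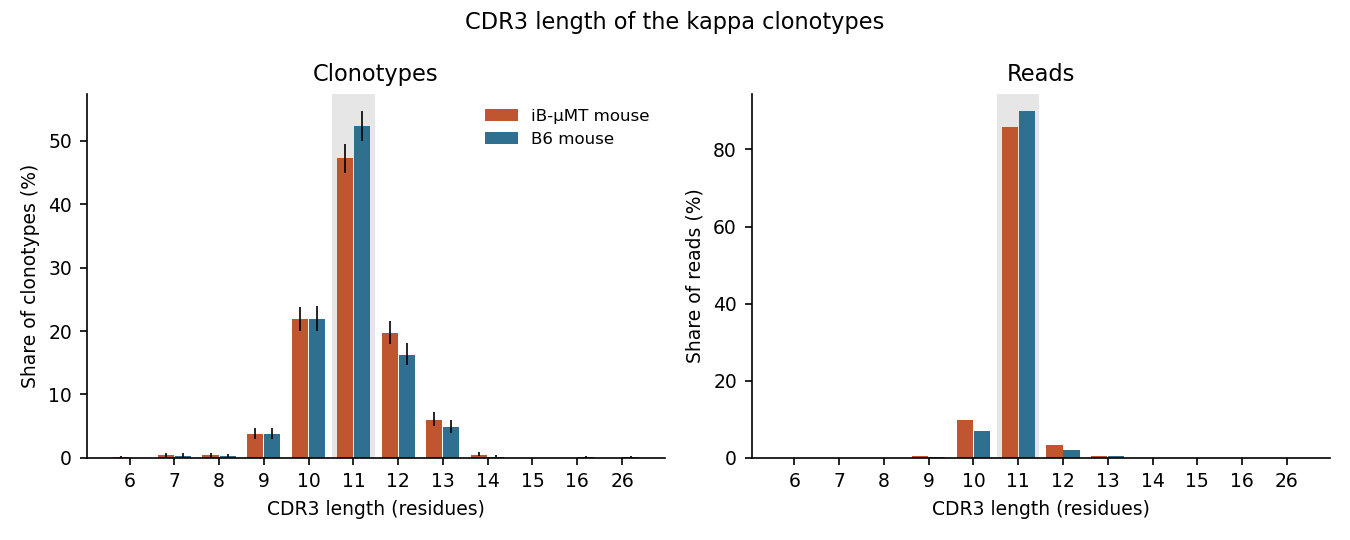
Share of clonotypes (left, %, with 95% Wilson intervals) and of reads (right, %) at each CDR3 length in residues, for the iB-μMT and B6 mice; the shaded length is the 11 residues that were excluded, and the axis jumps from 16 to 26. Lengths other than 11 held 52.7% and 47.6% of clonotypes but 14.2% and 10.001% of reads.

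Long CDR3s made up more of the kappa clonotypes of the iB-μMT library than of the B6 library, whereas the share of clonotypes that were short was not distinguishable between the libraries. Long clonotypes numbered 473 of 1802 in the iB-μMT library, 26.2% (95% Wilson interval 24.3 to 28.3%), and 359 of 1675 in the B6 library, 21.4% (19.5 to 23.5%). The difference was 4.82 percentage points (95% Newcombe interval 1.98 to 7.63; two-sided p = 0.000956 by Fisher's exact test, adjusted p = 0.00287 over the 3 shares compared). Short clonotypes made up 26.5% (24.5 to 28.6%) and 26.2% (24.2 to 28.4%), a difference of 0.262 points with an interval of -2.67 to 3.19 (adjusted p = 0.878, Fisher's exact test). All unusual lengths together made up 52.7% (50.4 to 55.0%) and 47.6% (45.3 to 50.04%), a difference of 5.08 points (1.75 to 8.39; adjusted p = 0.00424, Fisher's exact test). Averaged within V genes, so that V gene usage did not enter, the long share was still 4.48 points higher in the iB-μMT library. Among clonotypes found in 1 mouse alone, 35.2% were long in the iB-μMT library (32.2 to 38.4%) and 26.4% in the B6 library (23.4 to 29.6%). The 153 long clonotypes found in both mice count in both libraries and cannot differ.

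By reads, unusual lengths were a small fraction of the kappa repertoire, and 10-residue clonotypes carried most of it. Unusual lengths held 79761 of 562727 reads in the iB-μMT library (14.2%) and 53411 of 534077 in the B6 library (10.001%). Clonotypes of 10 residues alone held 55026 and 37549 reads, and those of 12 residues held 18276 and 11370. Short loops held 10.3% of reads in the iB-μMT library and 7.37% in the B6 library, a difference of 2.94 points, and long loops 3.86% and 2.63%, a difference of 1.23 points. By reads, most of the difference between the libraries was therefore in short loops, unlike by clonotypes, and no test was made of reads. The 10-residue reads were concentrated in the same 3 V genes in both mice, which held 55.6% and 54.9% of them. IGKV19-93 held 27.8% of them in the iB-μMT library and 28.0% in the B6 library, IGKV8-27 held 13.3% and 13.9%, and IGKV8-21, named after its values were seen, held 14.5% and 13.1%. Long reads were spread more widely, and the leading V gene, IGKV6-15, held 8.56% and 10.9% of them.

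The single most abundant member in both mice was the 10-residue IGKV19-93 and IGKJ1 clonotype printed above, with 5250 reads in the iB-μMT library and 3884 in the B6 library. Its 11-residue partner had 1864 and 963 reads, so the shorter loop was the more abundant of the pair in both libraries. The IGKV19-93 and IGKJ2 loop of 10 residues had 4433 and 3304 reads, and its 11-residue partner had 1574 and 619. For IGKV8-27 and IGKJ2, the 10-residue loop had 2775 and 1717 reads against 20 and 72 for the 11-residue loop. These 3 loops had the most reads of all members in both mice. The order was the opposite for IGKV4-59 and IGKJ5, where the 12-residue loop had 772 and 803 reads and the 11-residue loop 5928 and 5812. The leading 9-residue clonotype had 231 and 49 reads against 4401 and 6277 for its 11-residue partner. The leading 13-residue clonotype, of IGKV8-18 and IGKJ2, had 153 and 143 reads, and the most abundant 11-residue clonotype of those genes had 6 and 0.

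Both ends of the length range were thinly covered. The shortest loop, 6 residues of IGKV10-95 and IGKJ5, had 86 reads in the iB-μMT library and 0 in the B6 library. The leading 7-residue loop (IGKV4-69 and IGKJ1) had 46 and 0 reads, and the leading 8-residue loop (IGKV8-27 and IGKJ5) had 0 and 53. A count of 0 allows up to 3 reads, or 0.000533% of the reads of the iB-μMT library and 0.000561% of those of the B6 library. The 16-residue loop of IGKV4-72 and IGKJ4 was found in the B6 mouse alone, with 31 reads and 12 inserted nucleotides. The 26-residue loop had 3 reads in the B6 library and 47 inserted nucleotides between its IGKV8-30 and IGKJ5 parts. Its nucleotides 48 to 69, in capitals in the line that follows, were also the first 22 nucleotides of CDR3 in 42 other clonotypes, all of 1 V gene, IGKV6-32.
IGKV8-30 IGKJ5, 26 residues: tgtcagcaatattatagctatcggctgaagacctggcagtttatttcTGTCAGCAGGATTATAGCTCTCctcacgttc
Those IGKV6-32 clonotypes had 16549 reads in the iB-μMT library and 12431 in the B6 library.

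Short loops had more V nucleotides trimmed, and long loops more often kept both ends and carried P nucleotides at J. These parts add up to the length the clonotypes were selected on, so they are given as a description. Trimming of the V end removed 4.24 ± 2.76 nucleotides (SD, n = 477) in short clonotypes of the iB-μMT library and 4.41 ± 3.17 (n = 439) in those of the B6 library. In 11-residue clonotypes it removed 2.28 ± 2.53 (n = 852) and 2.22 ± 2.61 (n = 877), and in long ones 1.59 ± 2.67 (n = 473) and 1.38 ± 1.92 (n = 359). The V end was intact in 8.18% and 5.69% of short clonotypes, in 28.3% and 29.8% of 11-residue clonotypes and in 50.1% and 54.6% of long ones. J segments were intact in 26% and 27.1% of short clonotypes, 40.6% and 37.2% of 11-residue clonotypes and 75.3% and 75.5% of long ones. P nucleotides were called at the J end in 13.4% and 13.7% of short clonotypes. At 11 residues the shares were 29.5% and 26.2%, and in long clonotypes 62.2% and 64.1%. Called P nucleotides can also match the V segment. In the 6-residue IGKV10-95 loop, 6 were called, and the V and J parts overlapped by 8 nucleotides. The SDs are spreads over clonotypes of 1 library, not over mice.

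Of the 3 nucleotides that separate 10 from 11 residues, V trimming accounted on average for -1.61 nucleotides in the iB-μMT library and -1.92 in the B6 library. Of the 3 nucleotides gained by 12-residue loops, less V trimming made up 0.546 and 0.767, less J trimming 0.813 and 0.915, and P nucleotides 0.685 and 0.806. Of the 6 gained by 13-residue loops, P nucleotides made up 2.21 and 2.63. Inserted nucleotides, those between the V and J alignments, were found in 11.1% (95% Wilson interval 8.60 to 14.2%) and 12.3% (9.55 to 15.7%) of short clonotypes. They were found in 16.5% (14.2 to 19.2%) and 19.95% (17.4 to 22.7%) of 11-residue clonotypes, and in 27.7% (23.9 to 31.9%) and 27% (22.7 to 31.8%) of long ones. Most clonotypes of unusual length, in both directions and in both mice, therefore had no inserted nucleotide. At least 10 inserted nucleotides were called in 14 members of the iB-μMT library and 10 of the B6 library, of which 13 and 6 also had at least 10 V nucleotides called as trimmed. None of these 24 was found in both mice. At 11 residues, 12 and 14 clonotypes had as many inserted nucleotides, all with at least 10 V nucleotides called as trimmed, and in each library 8 were found in both mice. In each library 9 were called IGKV14-126, with 616 and 798 reads, whereas the members were called to 12 and 7 V genes. Whether such calls reflect a V sequence that differs from the reference was not tested.

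**Figure D2:**
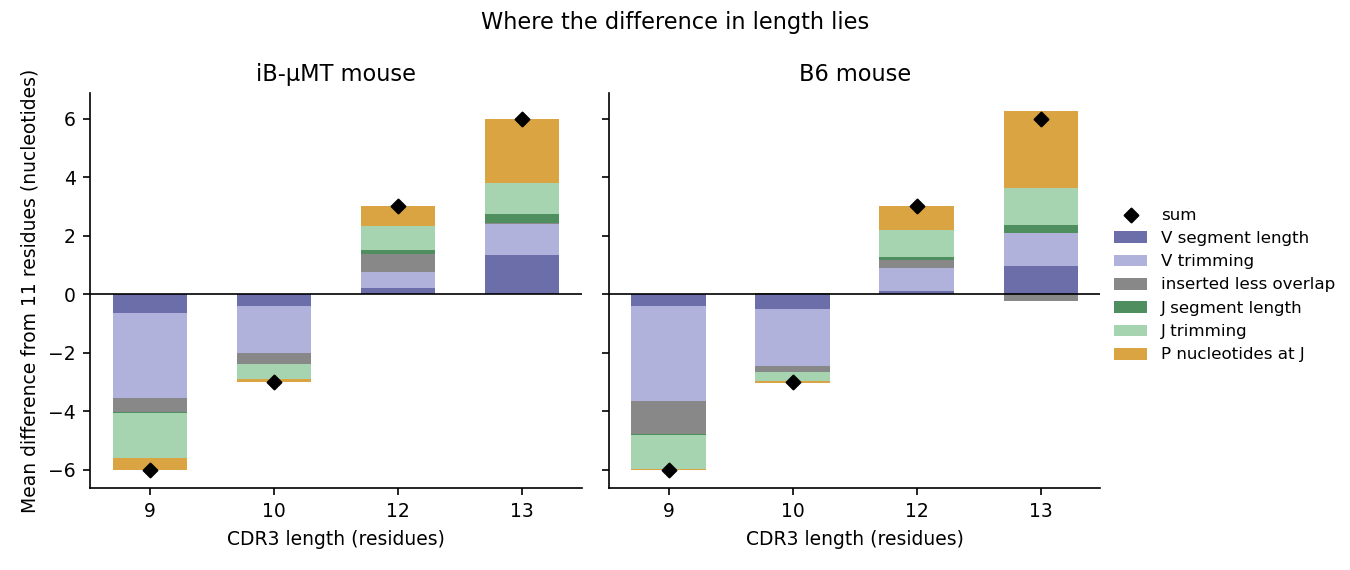
Mean difference in nucleotides between clonotypes of 9, 10, 12 or 13 residues and those of 11 residues in the same mouse (left iB-μMT, right B6), split into the parts that add up to it; bars above 0 add length, bars below remove it, and the diamond is their sum. Lighter V trimming bars dominate below 11 residues, and P nucleotides at J reach 2.21 and 2.63 nucleotides at 13 residues.

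Short loops lacked proline near the junction far more often than 11-residue loops, and long loops did not. Proline was counted among the 5 residues before the last residue of CDR3. Most V segments carry a proline codon at their end, and trimming of that end also shortens the loop. The proline contrast is therefore not independent of the length the clonotypes were selected on, and it is given as a description. Short clonotypes held it in 31.0% (148 of 477; 95% Wilson interval 27 to 35.3%) in the iB-μMT library and 28.5% (125 of 439; 24.5 to 32.9%) in the B6 library. Clonotypes of 11 residues held it in 87.3% (84.9 to 89.4%) and 90.7% (88.5 to 92.4%). The difference was -56.3 points (95% Newcombe interval -60.8 to -51.4) in the iB-μMT library and -62.2 points (-66.6 to -57.3) in the B6 library. Long clonotypes held proline in 90.3% (87.3 to 92.6%) and 91.9% (88.6 to 94.3%), a difference from 11 residues of 2.95 points (-0.696 to 6.32) and 1.27 points (-2.45 to 4.46), with both intervals including 0. Within V genes with at least 5 clonotypes of each class, short loops held proline less often in 38 of 39 V genes in the iB-μMT library and in 34 of 35 in the B6 library, and in the remaining V gene of each mouse the shares were equal. The weighted difference within V genes was -51.1 and -56.5 points. Among clonotypes found in 1 mouse alone, the difference between short and 11-residue loops was -35.7 points in the iB-μMT library and -49.9 points in the B6 library. Long loops then held proline 14.5 and 4.80 points more often than 11-residue loops, of which 72.3% and 83.1% held it.

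**Figure D3:**
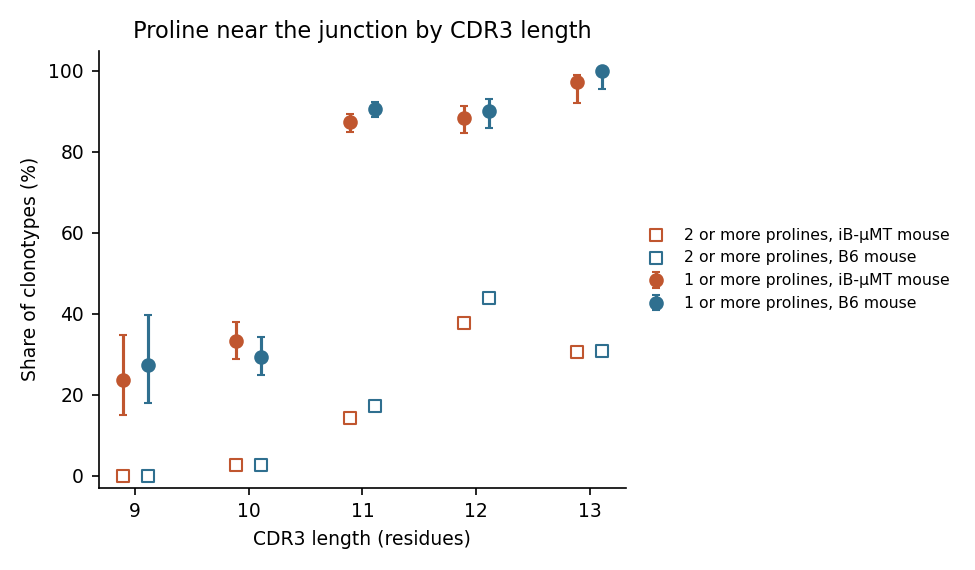
Share of clonotypes (%) with 1 or more prolines (filled circles, 95% Wilson intervals) and with 2 or more prolines (open squares) among the 5 residues before the last residue, by CDR3 length in residues, in the iB-μMT library and the B6 library. The share with proline was 33.2% and 29.4% at 10 residues and 87.3% and 90.7% at 11, and the share with 2 or more was highest at 12 residues, 37.6% and 44.0%.

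Loops of 12 residues often held a pair of prolines. At 12 residues, 134 of 356 clonotypes (37.6%) in the iB-μMT library and 120 of 273 (44.0%) in the B6 library had 2 or more prolines near the junction. Over all long clonotypes the share was 35.3% and 40.7%, against 14.2% and 17.2% at 11 residues and 2.31% and 2.28% in short ones. The long-minus-11 difference was 21.1 points (95% Newcombe interval 16.2 to 26) and 23.5 points (17.8 to 29.1). Of the long clonotypes with 2 or more prolines, 79.0% and 84.9% had an untrimmed V end, against 39.6% and 38.6% of those with 1 proline. Short clonotypes without proline had lost a mean of 4.91 and 5.04 V nucleotides, and those with 1 proline a mean of 2.82 and 2.94. Among short clonotypes, 86.0% and 86.3% of those without proline had lost at least 3 V nucleotides, which is 1 codon. Long clonotypes without proline were few, 46 and 29, and 54.3% and 58.6% of them had inserted nucleotides.

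Other residues near the junction also differed by length. Asparagine stood in that window in 27.5% and 26.4% of short clonotypes against 8.57% and 9.12% of 11-residue ones, and aspartate in 13% and 10.9% against 4.69% and 4.79%. Serine stood in the window of 57.2% and 57.9% of short clonotypes and 54.3% and 51.3% of 11-residue ones but 9.94% and 9.19% of long ones. The window has a fixed number of residues counted from the end, so in a shorter loop it reaches further into the V part. Glutamate was also rare in long loops, in 1.48% and 0.557% against 15.1% and 14.1% at 11 residues.

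Long loops more often held methionine near the junction, mostly with IGKJ2. It was found near the junction in 140 of 473 long clonotypes of the iB-μMT library, 29.6% (95% Wilson interval 25.7 to 33.9%), and 95 of 359 of the B6 library, 26.5% (22.2 to 31.3%). At 11 residues the shares were 4.34% and 3.19%, and in short clonotypes 3.56% and 1.82%. This residue was singled out after the values of all residues had been seen. In 115 and 78 long clonotypes the loop ended in methionine, tyrosine, threonine and phenylalanine, and all of these used IGKJ2. They made up 60.5% (53.4 to 67.2%) and 58.2% (49.7 to 66.2%) of the long IGKJ2 clonotypes, against 13.6% and 10.4% of IGKJ2 clonotypes at 11 residues and 2.63% and 1.75% of the short ones.

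In all 115 and 78 of these loops the J segment was untrimmed and at least 1 P nucleotide was called before it. The methionine codon was made of 1 called P nucleotide and the first 2 nucleotides of the J segment. The ending by which these loops were picked is spelled by the whole IGKJ2 segment after an a. The use of IGKJ2, the intact J and the called P nucleotide therefore largely follow from that choice. They also add to the length the clonotypes were selected on, so they are given as a description. The P stretch ran from 1 to 6 nucleotides with a median of 3 in both mice. The first 6 nucleotides of IGKJ2, tgtaca in 178 of 198 clonotypes of the iB-μMT library with that segment untrimmed, are their own reverse complement, so P nucleotides beyond them repeat the same letters. The loops used 54 and 41 V genes, and 57 and 39 of them had 12 residues. They were of low abundance, with a median of 20 reads in each mouse. The 12-residue IGKV6-15 loop printed above had 184 and 13 reads against 7302 and 12910 for the most abundant 11-residue clonotype of its genes. The 13-residue IGKV12-46 loop had 173 reads in the iB-μMT library and 0 in the B6 library, where its 11-residue partner had 3465. The 14-residue IGKV3-12 loop had 42 and 0 reads.

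IGKJ2 was the most frequent J gene of long loops and IGKJ1 of short ones. The J part adds to the length, and the IGKJ2 segment contributes 11 nucleotides to CDR3 where the other J segments contribute 10. IGKJ2 was used by 40.2% (95% Wilson interval 35.8 to 44.6%) and 37.3% (32.5 to 42.4%) of long clonotypes, against 24.2% and 24.1% of 11-residue ones. Over all unusual lengths the IGKJ2 share was 7.82 and 7.02 points above that at 11 residues, and without clonotypes found in both mice it was -0.465 and -1.79 points from it, with both intervals including 0. IGKJ1 was used by 21.4% and 23.7% of long clonotypes, against 32.5% and 31.6% at 11 residues and 36.7% and 35.1% in short loops. IGKJ5 was used by 21.8% and 21.7% of long clonotypes, against 27.6% and 28.2% at 11 residues and 23.1% and 27.6% in short loops. IGKJ4 was used by 16.7% and 17.3% of long, 15.7% and 16.2% of 11-residue and 16.4% and 11.4% of short clonotypes. IGKJ3, a nonfunctional segment, was the best hit of no clonotype used. P nucleotides were called in long loops of every J gene found. The shares were 73.3% and 76.5% with IGKJ1, 62.6% and 62.7% with IGKJ2, 58.2% and 62.9% with IGKJ4 and 53.4% and 53.8% with IGKJ5.

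Nearly every V gene contributed loops of unusual length. They came from 92 of 99 V genes in the iB-μMT library and 89 of 98 in the B6 library. Of the 69 V genes with at least 20 clonotypes in both libraries together, the share of unusual length ran from 13% to 81% with a median of 51.0%. V segments that offer CDR3 more nucleotides had lower shares of short loops and higher shares of long ones, a property tied to length itself. Where the V segment offered 25 or fewer, 37.8% and 39.2% of clonotypes were short and 16% and 14.6% were long. With 26 nucleotides, 28% and 27% were short and 23.8% and 18.8% were long. With 27 or more, 12.4% and 12.5% were short and 42.2% and 34.8% were long.

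**Figure D4:**
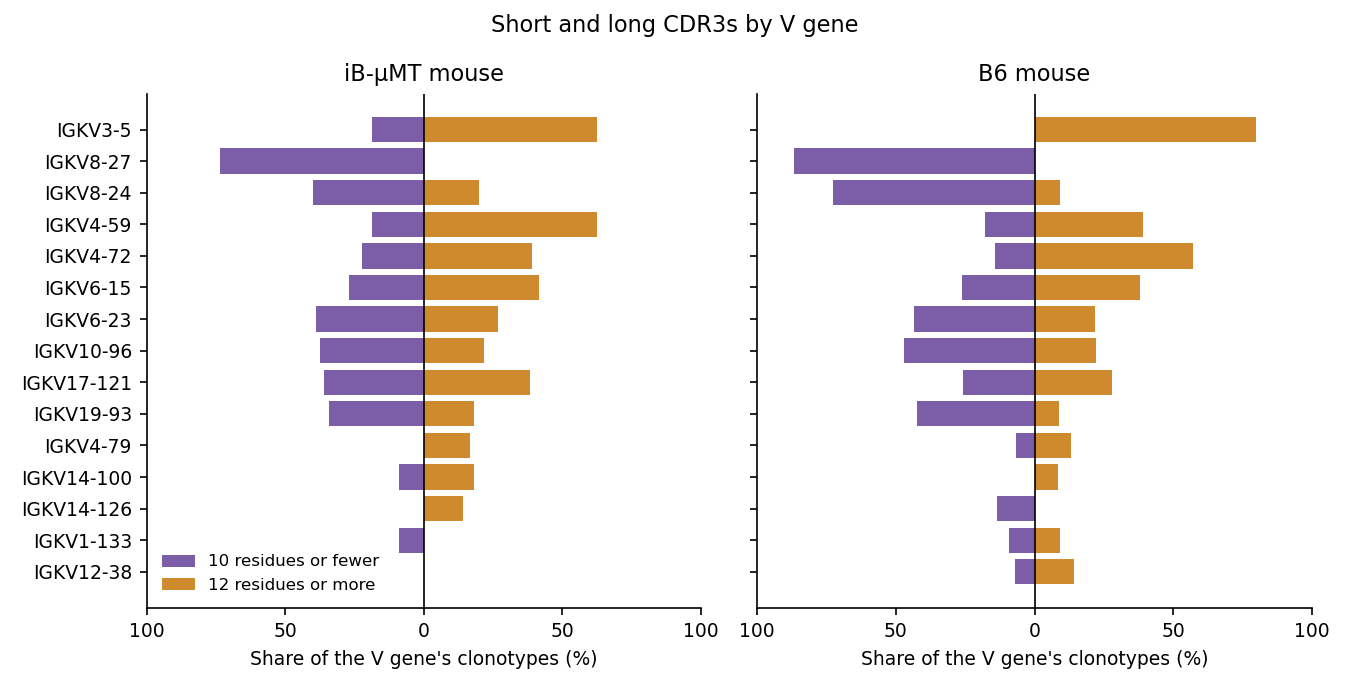
Share of each V gene's clonotypes (%) that were short (bars to the left of 0) or long (bars to the right), for the 15 V genes chosen by number or share of unusual lengths, in the iB-μMT library (left) and the B6 library (right). IGKV8-27 had 14 and 13 short loops and 0 long ones, while 10 of 13 and 4 of 4 unusual loops of IGKV3-5 were long.

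The V genes with the highest shares differed in direction. Positions are those of mouse assembly GRCm38, on chromosome 6, where the kappa locus lies. IGKV3-5 (70663298 to 70663895) had 13 of 16 clonotypes of unusual length in the iB-μMT library and 4 of 5 in the B6 library, of which 10 and 4 were long. IGKV8-27 (70171809 to 70172270) had 14 of 19 and 13 of 15, all short, and offers 21 V nucleotides where 26 is usual. Its unusual loops carried 98.6% and 98.5% of its reads. IGKV8-24 (70216858 to 70217421) had 6 of 10 and 9 of 11, and 8 of those 9 were short. IGKV4-59 (69438218 to 69438741) had 26 of 32 and 16 of 28, of which 20 and 11 were long. IGKV4-72 (69226854 to 69227383) had 11 of 18 and 15 of 21, of which 7 and 12 were long. Both IGKV4 genes offer 28 V nucleotides.

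IGKV17-121, IGKV6-23, IGKV6-15, IGKV19-93 and IGKV10-96 gave the most clonotypes of unusual length. IGKV17-121 (68036818 to 68037318) had 35 of 47 clonotypes in the iB-μMT library and 29 of 54 in the B6 library. IGKV6-23 (70260409 to 70260933) had 27 of 41 and 30 of 46, IGKV6-15 (70406469 to 70406992) had 28 of 41 and 27 of 42, and IGKV10-96 (68631965 to 68632430) had 19 of 32 and 25 of 36. IGKV19-93 (68736297 to 68736764) had 23 of 44 and 23 of 45, and those carried 65.7% and 75.3% of its reads, although the V gene offers the usual 26 nucleotides. In IGKV17-121 they carried 6.92% and 3.82% of the reads. The lowest shares were those of IGKV12-38 (69943186 to 69943648), with 0 of 9 and 3 of 14, and IGKV1-133 (67724914 to 67725661), with 1 of 11 and 2 of 11. IGKV14-126 (67896177 to 67896642) had 3 of 21 and 3 of 22, IGKV14-100 (68519012 to 68519477) 3 of 11 and 1 of 12, and IGKV4-79 (69042972 to 69043505) 2 of 12 and 3 of 15.

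No V gene was called between the libraries. By Fisher's exact test with Benjamini-Hochberg adjustment, 0 of 69 V genes had a share of unusual length that differed at an adjusted p under 0.05, which is 0% of those tested, and 1 had an unadjusted p under 0.05. That gene was IGKV17-121, with 74.5% (95% Wilson interval 60.5 to 84.8%) in the iB-μMT library and 53.7% (40.6 to 66.3%) in the B6 library (p = 0.0390, Fisher's exact test, adjusted p = 1). With clonotypes found in both mice left out, IGKV17-121 had 20 of 21 against 14 of 28, and it was the 1 gene called of 37 tested (adjusted p = 0.0225, Fisher's exact test). The share was higher in the iB-μMT library for 46 of the 69 V genes and higher in the B6 library for 23. Across these V genes, which are not independent replicates and share clonotypes, the shares in the 2 mice had a Spearman rho of 0.730 as a description.

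Clonotypes of unusual length had fewer reads each. The median was 26 reads (95% interval 23 to 28) in the iB-μMT library and 23 (21 to 25) in the B6 library, against 112 (93 to 141) and 95 (80 to 123) at 11 residues. Short clonotypes had medians of 31 and 25 reads, and long ones had 22 in both mice. The lowest count was 1 read, in 62 members of each mouse. At least 10 reads supported 81.2% and 80.8% of unusual and 89.6% and 86.9% of 11-residue clonotypes, a difference of -8.40 points (95% Newcombe interval -11.6 to -5.15) and -6.06 points (-9.61 to -2.54). Without clonotypes found in both mice the direction turned, to 2.03 points (-3.97 to 8.38) and 5.72 points (-0.887 to 12.4), and with near-identical clonotypes merged the B6 difference was -2.07 points (-5.51 to 1.35). At least 100 reads supported 14.9% and 10.9% of unusual and 52.2% and 49.8% of 11-residue clonotypes. The lowest quality within CDR3 was at least 30 in 95.7% and 93.2% of unusual and 97.1% and 93.2% of 11-residue clonotypes. CDR3 did not end in phenylalanine in 9 and 7 members, with 125 and 101 reads in all.

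Unusual lengths were found in both mice less often than 11 residues. A clonotype counted as found in both when CDR3 nucleotides, V gene and J gene were the same. In the iB-μMT library, 324 of 950 members, 34.1% (95% Wilson interval 31.2 to 37.2%), were also found in the B6 library, against 66.9% (63.7 to 70.0%) at 11 residues. In the B6 library, the 324 made up 40.6% (37.2 to 44.0%), against 65.0% (61.8 to 68.1%). The difference was -32.8 points (95% Newcombe interval -37.1 to -28.3) and -24.4 points (-28.9 to -19.7). By length, 40.6% and 43.6% of 10-residue, 33.1% and 43.2% of 12-residue and 32.4% and 43.2% of 13-residue clonotypes were found in both mice, whereas 16.2% and 17.7% of 9-residue clonotypes were. Of the loops of 8 residues or fewer, or of 14 or more, none was. Carry-over of reads between the libraries was not tested.

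Members with more reads were more often found in both mice. Among members with 1 to 9 reads, 12.2% and 10.6% of short and 13.4% and 13.2% of long clonotypes were found in both, against 14.6% and 8.70% at 11 residues, and the intervals overlapped. With 10 to 99 reads, the shares were 31.0% and 40.1% of short and 31.3% and 45.6% of long clonotypes. At 11 residues they were 46.5% and 48.6%. The intervals in this range were apart in the iB-μMT library and overlapped in the B6 library. The differences over all clonotypes were not adjusted for reads, which were higher at 11 residues. With 100 reads or more, 72.8% (95% Wilson interval 63.0 to 80.9%) and 75.4% (62.9 to 84.8%) of short clonotypes were found in both, against 91.9% (89.0 to 94.1%) and 92.0% (89.1 to 94.2%) at 11 residues. For long clonotypes with 100 reads or more the share was 76.0% (62.6 to 85.7%) and 83.3% (66.4 to 92.7%), and in the B6 library that interval overlapped the one at 11 residues. Without inserted nucleotides, 39.6% and 43.6% of short and 36.8% and 48.1% of long clonotypes were found in both. With inserted nucleotides, the shares were 5.66% and 5.56% of short and 20.6% and 27.8% of long clonotypes. At 11 residues they were 72.3% and 73.2% without inserted nucleotides and 39.7% and 32.0% with them.

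**Figure D5:**
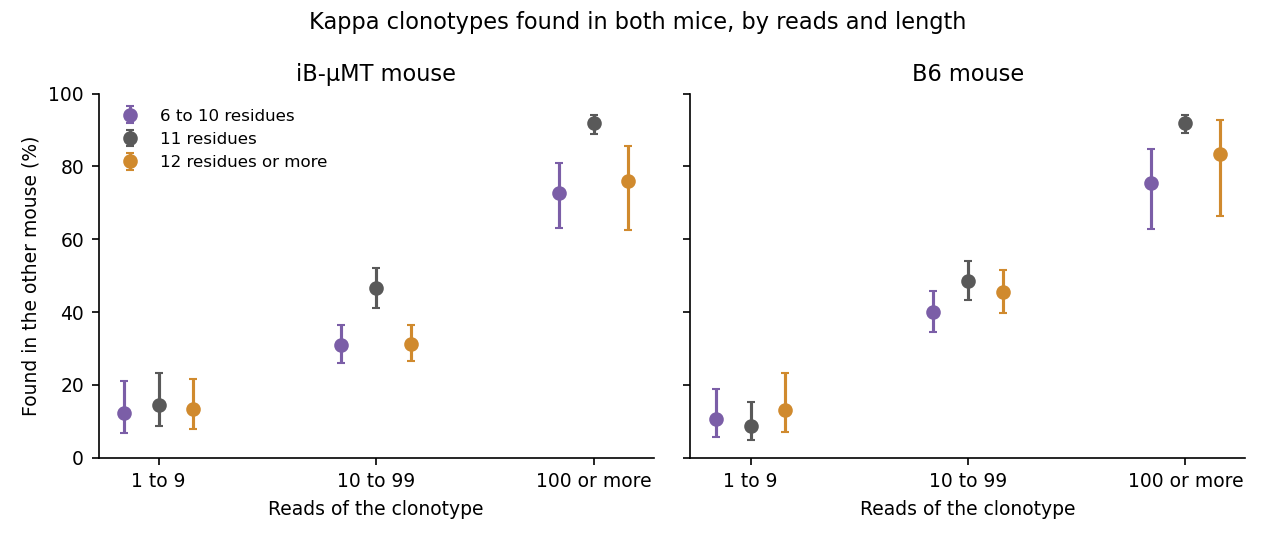
Share of clonotypes (%) of each mouse (left iB-μMT, right B6) that were found in the other mouse, by the reads of the clonotype, for short, 11-residue and long CDR3s, with 95% Wilson intervals. The shares lay between 8.70% and 14.6% at 1 to 9 reads and between 72.8% and 92.0% at 100 reads or more, where short loops lay below 11-residue ones in both mice.

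The 324 clonotypes of unusual length found in both mice, 171 short and 153 long, carried 72.8% of the reads of unusual length in the iB-μMT library and 74.6% in the B6 library. Their reads ran from 3 to 5250 with a median of 52 in the iB-μMT library and from 2 to 3884 with a median of 41 in the B6 library. Across these clonotypes, as a description, reads in the 2 mice had a Spearman rho of 0.610 and a Pearson r of 0.724 on the log2 scale. The 626 and 474 members found in 1 mouse had medians of 20 and 17 reads. Some were abundant. Of the 142 iB-μMT and 87 B6 members with 100 reads or more, 37 and 19 were found in 1 mouse alone. Clonotypes of 11 residues with 100 reads or more numbered 445 and 437, of which 409 and 402 were found in both mice. The most abundant members found in 1 mouse alone, chosen after their values were seen, were 10-residue loops without insertions. IGKV6-23 with IGKJ2 had 1047 reads in the B6 library and 0 in the iB-μMT library, and IGKV6-23 with IGKJ5 had 687 reads in the iB-μMT library and 0 in the B6 library. Next in the B6 library came an IGKV19-93 loop with 299 reads and an IGKV6-20 loop with 259, and next in the iB-μMT library came loops of IGKV6-32 with 589 reads and IGKV6-20 with 572.

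Many members lay 1 codon from a far more abundant clonotype. Of the clonotypes of unusual length, 47.9% in the iB-μMT library and 46.4% in the B6 library differed by 1 in-frame codon, gained or lost, from a clonotype of the same V and J genes with at least 10 times the reads, against 3.40% and 2.74% at 11 residues. An 11-residue clonotype can lie 1 codon only from clonotypes of other lengths, which had fewer reads each. The lower share at 11 residues is therefore tied to the length rule. The share of members 1 codon away was much the same for short (48.6% and 44.4%) and long (47.1% and 48.7%) clonotypes. Those members had medians of 28 and 27 reads, and 43.7% and 54.6% of them were found in both mice, against 25.3% and 28.5% of the other members. Whether some of them arose in amplification or sequencing was not tested. All clonotypes 1 codon away, those of 11 residues among them, were then left out. The long share was still 4.604 points higher in the iB-μMT library (95% Newcombe interval 1.74 to 7.46; Fisher's exact test, adjusted p = 0.00567). The proline difference between unusual lengths and 11 residues was then -29.2 points in the iB-μMT library and -39.5 points in the B6 library, in place of -26.8 and -33.6 over all clonotypes, whereas without clonotypes found in both mice it was -10.04 (95% Newcombe interval -16.3 to -3.41) and -26.1 points (-32.0 to -19.7). Without all clonotypes 1 codon away, the found-in-both difference was -45.5 and -39.7 points.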

How the data were processed

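RNA from the sorted cells was amplified by 5′ RACE and read in pairs on a MiSeq. The authors assembled clonotypes with MiXCR (version 3.0.13) and deposited read counts, the fraction of the library that each clonotype held, and a quality score, the lowest of any base in CDR3. The submitters' processing notes list bcl2fastq and mm10. The kappa tables held 562884 and 534314 reads, and a count of 0 allows up to 3 reads. Counts were used as deposited. The clonotypes and the lists compared were chosen with earlier results of these data known.

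V and J trimming, P nucleotides and the gap between V and J were read from the reference points of each clonotype. The P nucleotides belong to the J part, and a gap below 0 is an overlap that matches both segments. Shares had 95% Wilson intervals and their differences 95% Newcombe intervals. Medians had 95% order-statistic intervals. Between the libraries, Fisher's exact test (two-sided) was adjusted by the Benjamini-Hochberg method at 0.05. Differences between length classes were given without a p. Logistic models tested 3 interactions of length and library. Tested on simulated data with the measured numbers of clonotypes, the V gene test called 19 of 20 planted differences (95% against 15%) among 69 V genes, and 0 others. The planted differences were far larger than that of IGKV17-121 (74.5% against 53.7%). Whether the test would call differences of that size was not tested. Named V genes were the 5 with the most members and, with at least 20 clonotypes, the 5 highest and 5 lowest shares. Named clonotypes were the leading member at each length and the top 3 per mouse, with their 11-residue partners. All 102 IGKV names matched RefSeq's table of GRCm38. Alternatives were read minimums of 2, 5 and 10, merging, unique V hits, equal reads and others. Python 3.11.15, SciPy 1.17.1 and statsmodels 0.14.6 were used. The heavy and lambda chain tables were counted only.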

Additional observations from a re-analysis of the deposited data

Results flagged for a closer look

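The contrast between unusual lengths and 11 residues differed between the 2 libraries for 2 of the 3 measures tested in a logistic model over clonotypes. For being found in both mice, the odds ratio of unusual lengths against 11 residues was 0.256 in the iB-μMT library and 0.368 in the B6 library, a ratio of 0.696 (95% interval 0.526 to 0.919; n = 3477 clonotypes, adjusted p = 0.0159 over 3 measures). The 894 clonotypes found in both mice, 324 of them of unusual length, are the same on both sides, so this ratio reflects the clonotypes found in 1 mouse alone, of which 68.9% and 60.7% had an unusual length. That is a difference of 8.25 points (95% Newcombe interval 3.69 to 12.8). The model counted the 894 once in each library, as if independent, so its interval and p do not measure the error of this ratio.

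For proline near the junction, the odds ratio was 0.223 in the iB-μMT library and 0.137 in the B6 library, a ratio of 1.63 (95% interval 1.14 to 2.33; n = 3477 clonotypes, adjusted p = 0.0159). By class, the odds ratio of short loops was 0.0653 and 0.0411, a ratio of 1.59 (95% interval 1.05 to 2.41), and that of long loops was 1.35 and 1.17, a ratio of 1.15 (0.647 to 2.04). The third measure, at least 10 reads, had a ratio of 0.790 (0.540 to 1.15; n = 3477 clonotypes, adjusted p = 0.223). With 1 library per mouse, these tests compare libraries, and clonotypes of 1 library are not replicates.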

How the results depend on the processing

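No paired analysis was possible because each mouse had 1 kappa library. Of 197 differences under alternative settings, 182 kept their sign. A 95% interval was made for 191 of them, and in 15 of these it changed between including and excluding 0. Of the 15 that changed sign, 10 were of differences whose reported interval already included 0, among them inserted nucleotides in the B6 library in 5 settings. Counting clonotypes by reads made the long share 1.23 points higher in the iB-μMT library in place of 4.82, and the short share 2.94 in place of 0.262. In the other settings the long difference lay between 3.83 and 8.87 points, and each adjusted p stayed under 0.05. The IGKJ1 difference in the iB-μMT library, -3.46 points with an interval that included 0, had an interval below 0 in 4 settings. Leaving out clonotypes found in both mice changed most. In the iB-μMT library, the difference between unusual lengths and 11 residues became 2.03 points for at least 10 reads, -0.465 for IGKJ2, 1.44 for IGKJ5 and -5.54 for inserted nucleotides. In the B6 library it became 5.72 points for at least 10 reads, -1.79 for IGKJ2, 3.46 for IGKJ5 and -13.2 for inserted nucleotides. The proline difference became -10.04 points in the iB-μMT library, in place of -26.8, and -26.1 in the B6 library, in place of -33.6. In that setting the median reads of members were 20 and 17, and 1 V gene was called in place of 0. Merging near-identical clonotypes made the B6 difference for at least 10 reads -2.07 points (95% Newcombe interval -5.51 to 1.35). With at least 5 reads, the medians were 30 and 27.

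Some alternatives were chosen after seeing the data. With at least 10 reads, the medians of members were 35 and 29. Without clonotypes 1 codon from one of 10 times the reads, the difference for inserted nucleotides was 10.9 points in the iB-μMT library and 3.32 in the B6 library, in place of 2.82 and -1.03, and the B6 median was 20. With P nucleotides counted as inserted, it was 11.7 and 9.36 points. Leaving P nucleotides out, as planned, gave the values reported, since the J part already holds them. Counting P nucleotides as inserted changes the definition alone, and the cause of the other changes was not tested. Lengths of 8 residues or fewer and 14 or more rest on 15 and 10 and on 9 and 5 clonotypes.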
